A study of Mus musculus with 2 samples.

Results

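Fcer2a-positive B cells of the pancreas were chosen by their raw UMI counts (unique molecular identifiers, each standing for 1 captured RNA molecule). A cell entered with at least 3 UMIs of Cd79a, none of Cd3d, Cd3e and Cd3g, at most 1 of Lyz2 and at least 1 of Fcer2a. The rule kept 406 of 3913 cells, 326 of 2804 at 12 weeks and 80 of 1109 at 7 weeks. Cells that met the first 3 conditions with no Fcer2a UMI, 151 at 12 weeks and 33 at 7 weeks, are called Fcer2a-negative and served as the contrast.

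Follicular B cells are the mature B cells that recirculate through blood and the follicles of lymphoid organs, bind antigen with their receptor, and show peptides of it on MHC class II molecules to CD4 T cells. Fcer2a encodes CD23, the low-affinity receptor for IgE, which is abundant on follicular B cells and low or absent on marginal zone, B-1, germinal centre and plasma cells. In NOD mice B cells gather with T cells around and in the pancreatic islets, and they are known there as cells that present islet antigens.

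The immune cells came from female NOD/ShiLtJ mice, an inbred strain with spontaneous autoimmune diabetes, 12 weeks old in 1 library and 7 weeks old in the other. They had been sorted as CD45.1+ from the pancreas and captured with 10x Genomics Chromium 3' reagents. The labels do not say how many mice a library pooled. With 1 library per age no test was possible, age cannot be told apart from library, and each interval below (95%) covers counting error only, leaving out differences between mice and between cells.

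The 12 week matrix held 19288252 UMIs in 2812 barcodes and the 7 week matrix 8701184 in 1113. The positive cells summed to 1702400 and 468448 UMIs, with medians of 4629.5 and 5186.5 UMIs and of 1512 and 1586 genes per cell. The median mitochondrial share was 2.23% and 2.24%. Negative cells had medians of 4486 and 4461 UMIs. The libraries shared 2 barcodes, none of them in the gate. No immunoglobulin gene was listed in the matrices, so isotypes were not analysed here.

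Fcer2a (chr8:3681737-3694175, minus strand, mm10) alone split the gated cells, and its counts showed no gap at the threshold. Among all gated cells, 68.3% were positive at 12 weeks (64.0% to 72.5%, 326 of 477) and 70.8% at 7 weeks (61.5% to 79.0%, 80 of 113), intervals that overlap. Just inside the threshold, 25.8% of gated cells had 1 Fcer2a UMI at 12 weeks and 23.9% at 7 weeks. Just outside it, 31.7% and 29.2% had none. Had all gated cells carried the same Fcer2a share of their UMIs, 24.3% and 19.4% would have been at 0. A cell at 0 can thus be one whose Fcer2a RNA was not captured, and the split divides a range of levels.

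Positive cells averaged 2.35 ± 1.62 Fcer2a UMIs at 12 weeks (SD over 326 cells) and 2.66 ± 1.74 at 7 weeks (SD over 80 cells), with maxima of 11 and 9. Near the Cd79a threshold few cells were found. At 3 Cd79a UMIs, 0 of 3 gated cells were positive at 12 weeks and 2 of 2 at 7 weeks, and at 2 Cd79a UMIs it would have been 0 of 1 and 1 of 2. After each cell had been thinned at random to 2000 UMIs before the gate, 43.8% (221 of 504, 39.5% to 48.3%) and 51.9% (55 of 106, 42.0% to 61.7%) of gated cells were positive. When the cells gated at full depth were thinned, 42.6% (203 of 477) and 41.6% (47 of 113) kept a Fcer2a UMI. Cells with at least 3 CD3 UMIs and no Cd79a are the CD3-positive cells used below, with median depths of 4757 and 5530 UMIs. A Fcer2a UMI was found in 0.832% of them (13 of 1563) at 12 weeks and 0.826% (6 of 726) at 7 weeks. In cells outside that group with under 3 Cd79a UMIs it was found in 1.65% (9 of 545) and 2.45% (5 of 204). The CD3-positive cells were chosen to hold no Cd79a UMI, so they do not measure the free B cell RNA of the droplets, which was not tested.

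**Figure D1:**
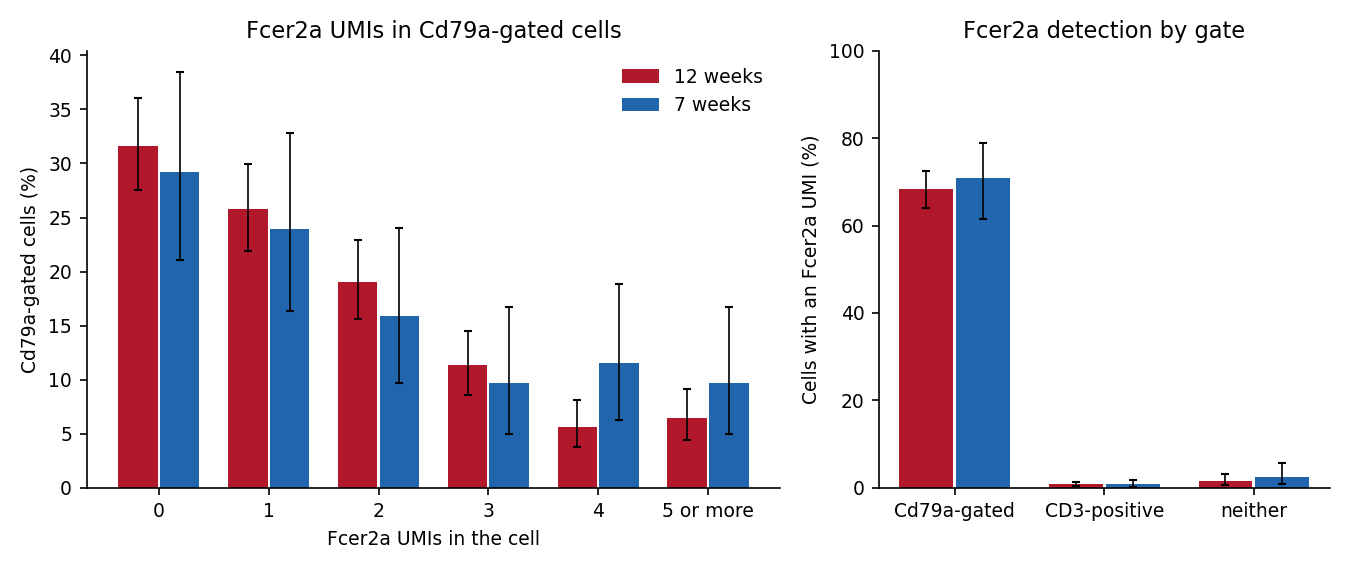
Left, percent of Cd79a-gated cells (y axis) by number of Fcer2a UMIs in the cell (x axis) at 12 weeks (red) and 7 weeks (blue). Right, percent of cells with any Fcer2a UMI in the Cd79a-gated cells, the CD3-positive cells and the cells in neither group; bars are shares, lines exact binomial 95% intervals, and the gated cells stand at 68.3% and 70.8% against 0.832% and 0.826% of CD3-positive cells.

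The gate held B cells by markers that the rule had not used. Cd79b, the partner of Cd79a in the B cell receptor, was detected in 98.8% of positive cells at both ages. Ms4a1, which encodes CD20, was detected in 98.2% at 12 weeks and 92.5% at 7 weeks. Pax5, the transcription factor that keeps B cell identity, was seen in 56.4% and 61.3%.

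Lists of T cells, NK cells and macrophages summed lower in positive than in CD3-positive cells, and lists of dendritic cells did not. The T cell list summed to 280 and 269 counts per 1000000 UMIs (CPM) in positive cells, against 3055 and 2699 CPM in CD3-positive cells. The NK list summed to 51.1 and 40.6 CPM in positive cells, against 1892 and 1564 CPM in CD3-positive cells. The NK marker Nkg7 was found in 15.6% and 11.25% of positive cells. The macrophage list summed to 123 and 70.4 CPM in positive cells, against 336 and 330 CPM in CD3-positive cells. Csf1r and Ms4a7 were among its genes at 0 at 12 weeks, and Fcgr1 and Ms4a7 among those at 0 at 7 weeks. C1qa was found in 12 and 1 positive cells, and Csf1r in 1 at 7 weeks. The conventional dendritic cell list summed to 182 and 177 CPM in positive cells, against 159 and 139 CPM in CD3-positive cells. The plasmacytoid dendritic cell list summed to 789 and 717 CPM in positive, 962 and 840 CPM in negative and 311 and 424 CPM in CD3-positive cells. Siglech, its defining surface marker, was found in 2 and 1 positive cells. The plasma cell surface marker Sdc1 was found in 2 and 0 positive cells.

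RNA of the exocrine and endocrine pancreas was present too. Acinar list genes summed to 343 CPM at 12 weeks, against 160 CPM at 7 weeks, and endocrine list genes to 133 and 14.9 CPM. At 7 weeks 1 positive cell held 70 of the 75 acinar UMIs, and at 12 weeks 1 cell held 67 of 584. The 12 week level was of like size in CD3-positive cells, at 294 CPM for the acinar list, against 34.2 CPM at 7 weeks. For the endocrine list CD3-positive cells stood at 1945 CPM at 12 weeks, with a median cell of 68.6 CPM, against 34.7 CPM at 7 weeks. Acinar and endocrine genes were left out of the genes named by rank. With their UMIs left out of the totals, 772 genes were over 1.5-fold higher and 512 lower at 12 weeks in positive cells, as with them. The acinar and endocrine lists held 584 and 226 of 1702400 UMIs at 12 weeks and 75 and 7 of 468448 at 7 weeks. That is too little for this step to move the counts, so it decides nothing. The part of pancreatic RNA in differences between the ages was not tested.

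Positive cells carried the receptors that place a B cell in the circulation and in follicles. The chemokine receptor Cxcr5, which guides B cells to follicles, stood at 123 CPM at 12 weeks, against 111 CPM at 7 weeks and was detected in 46.9% and 41.3% of cells. Ccr7, which guides lymphocytes toward T cell zones, stood at 159 and 162 CPM. The complement receptor Cr2, which lowers the threshold for B cell activation, stood at 132 and 145 CPM. For each of these 3 genes the 12 over 7 week ratio lay between 0.910 and 1.11 with an interval including 1, so that the libraries were not distinguishable by them at this depth.

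Tnfrsf13c, the BAFF receptor on which mature B cells depend, stood at 491 CPM at 12 weeks, against 406 CPM at 7 weeks (ratio 1.21, 1.03 to 1.43). Cd40, the receptor for T cell help, stood at 139 and 134 CPM. The survival gene Bcl2 stood at 158 and 120 CPM (ratio 1.32, 0.988 to 1.80). Of 9 genes with at least 30 UMIs in the list of survival receptors and BCL2 family members, none was over 1.5-fold higher and 2 were over 1.5-fold lower at 12 weeks, against 13.9% and 9.2% of all genes tested. The 2 were the survival gene Bcl2a1b, at 38.8 and 59.8 CPM (ratio 0.649, 0.411 to 1.05), whose reads near-identical copies can share, and Bcl2l11, which encodes the death-promoting protein BIM, at 18.8 and 27.8 CPM (ratio 0.677, 0.346 to 1.41). Both intervals include 1.

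The B cell factors Ebf1 (1084 and 1005 CPM), Mef2c (844 and 826 CPM) and Irf8 (601 and 566 CPM) gave 12 over 7 week ratios of 1.08, 1.02 and 1.06 with intervals that included 1. Among kinases, phosphatases and adaptors of B cell receptor signalling the ratios went both ways. Syk, the kinase that binds the receptor's phosphorylated tails, stood at 241 and 301 CPM (interval of the ratio 0.659 to 0.976), and Blnk, the adaptor it phosphorylates, at 206 and 222 CPM. Of 17 such genes with at least 30 UMIs, none was past 1.5-fold between the ages, where 13.9% of all genes tested were higher and 9.2% lower. The interval lay above 1 for Lyn (ratio 1.32), Cd81 (ratio 1.39) and Ptpn6 and below 1 for Syk alone.

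Against Fcer2a-negative cells, the positive cells had more RNA of the complement regulator Cd55, the proton channel Hvcn1 and the Arf GTPase-activating protein Smap2. They had less of the transcription factor Tcf4 and the chromatin reader Brd2. These 5 are all the genes that were over 1.5-fold apart in the same direction with an interval excluding 1 at both ages, and had no more than 20% of a gate's UMIs in 1 cell, ribosomal protein genes and predicted models being left aside. Folds here are on the log2 scale of CPM with 0.5 UMI added to each sum. Of 2366 genes with at least 30 UMIs at both ages, leaving out the rule's own, 11 (0.465%) were over 1.5-fold higher in positive cells at both ages and 61 (2.58%) over 1.5-fold lower. Intervals lay above 1 at both ages for 63 genes (2.66%) and below 1 for 79 (3.34%).

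Cd55 protects cells from complement by speeding the decay of its convertases. It stood at 218 CPM in positive cells and 130 CPM in negative cells at 12 weeks (ratio 1.67, 1.35 to 2.08), and at 265 and 170 CPM at 7 weeks (ratio 1.56, 1.05 to 2.37). Hvcn1, the voltage-gated proton channel that feeds oxidant signalling below the B cell receptor, stood at 355 CPM in positive and 230 CPM in negative cells at 12 weeks (ratio 1.55, 1.32 to 1.82), and at 310 and 202 CPM at 7 weeks (ratio 1.53, 1.07 to 2.25). In both libraries the positive cells were the higher for both genes, but by less than 1.5-fold after thinning, when the log2 ratios at 12 and 7 weeks were 0.43 and 0.29 for Cd55 and 0.42 and 0.56 for Hvcn1. Without cells over 2 times the median depth they were 0.41 and 0.32 for Cd55 and 0.28 and 0.23 for Hvcn1.

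Smap2, a GTPase-activating protein for Arf in clathrin-coated vesicle traffic, stood at 199.7 CPM in positive and 127 CPM in negative cells at 12 weeks (ratio 1.57, 1.27 to 1.97), and at 228 and 122 CPM at 7 weeks (ratio 1.87, 1.18 to 3.07). When cells were thinned to 2000 UMIs before the gate its log2 ratio was 0.13 at 12 weeks and -0.11 at 7 weeks, so its difference was not kept.

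Tcf4 encodes E2-2, an E protein used by B cells, plasma cells and plasmacytoid dendritic cells. It stood at 91.0 CPM in positive and 151 CPM in negative cells at 12 weeks (ratio 0.605, 0.476 to 0.768), and at 74.7 and 160 CPM at 7 weeks (ratio 0.468, 0.279 to 0.789). Brd2, a bromodomain protein that binds acetylated histones, stood at 89.9 and 139 CPM at 12 weeks (ratio 0.645, 0.506 to 0.825) and at 89.7 and 170 CPM at 7 weeks (ratio 0.527, 0.325 to 0.862). Thinned, Brd2 turned to a log2 ratio of 0.16 at 12 weeks, while Tcf4 stayed lower in positive cells at both ages (-0.61 and -0.73).

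Most of the genes lower in positive cells rested on a few negative cells. Of the 61, 56 had over 20% of their UMIs in 1 negative cell at 1 age or more, and 28 over 50%. Of the 11 genes higher in positive cells, none had over 20% of its UMIs in 1 positive cell. The negative gate held 3 cells at 12 weeks and 1 at 7 weeks with at least 100 UMIs of 7 plasma cell genes. Those cells carried 94.5% of the negative gate's 4625 UMIs of these genes at 12 weeks and 95.3% of its 1740 at 7 weeks, whereas no positive cell exceeded 39 and 6.

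Jchain, which joins the chains of polymeric antibody, stood at 59.9 CPM in positive and 3924 CPM in negative cells at 12 weeks, and at 40.6 and 7872 CPM at 7 weeks. A Jchain UMI was found in 16.0% and 20% of positive cells, no more than the 19.7% and 22.3% of CD3-positive cells. Whether the level in positive cells is background RNA was not tested. Xbp1, the factor that drives the secretory programme, stood at 84.6 and 226 CPM at 12 weeks and at 64.0 and 495 CPM at 7 weeks, positive cells first in each pair. Mzb1, a chaperone of antibody assembly, stood at 636 CPM in positive and 1278 CPM in negative cells at 12 weeks, and at 502 and 2053 CPM at 7 weeks. Of 8 plasma cell list genes measured at both ages, none was over 1.5-fold higher and 7 were over 1.5-fold lower in positive cells. Of all genes tested 0.465% and 2.58% were. The list's median log2 ratios were -1.59 and -2.82. Without the cells rich in plasma cell or cell cycle transcripts, chosen for removal after seeing the data, those medians were -0.02 and -0.93.

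**Figure D2:**
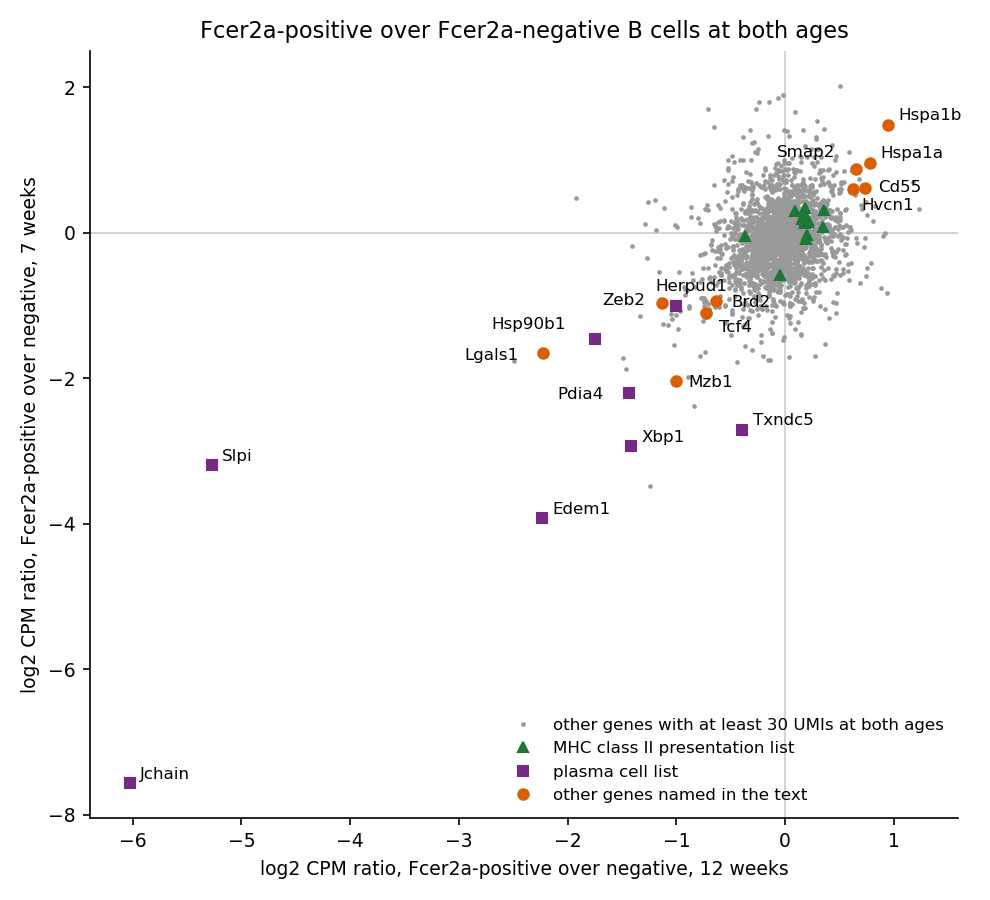
Each point is a gene with at least 30 UMIs at both ages, with its log2 CPM ratio of Fcer2a-positive over Fcer2a-negative cells at 12 weeks (x axis) and at 7 weeks (y axis); the grey lines mark equal levels. Plasma cell list genes (purple) run to the lower left, with Jchain farthest, while Cd55, Hvcn1, Smap2, Hspa1a and Hspa1b lie at the upper right and the MHC class II genes (green) lie within 1.5-fold at 12 weeks.

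Of the 16 genes of the follicular list other than Fcer2a measured at both ages, Cd55 alone was over 1.5-fold higher in positive cells at both ages and none was over 1.5-fold lower, with median log2 ratios of 0.29 at 12 weeks and 0.11 at 7 weeks (-0.03 and -0.07 over all genes tested). Of all genes tested, 0.465% were over 1.5-fold higher at both ages and 2.58% over 1.5-fold lower. Klf2, a factor that keeps lymphocytes recirculating, had ratios of 1.87 (1.22 to 2.96) at 12 weeks but 0.594 (0.348 to 1.03) at 7 weeks. The label of follicular type rests on Fcer2a, and both gates carried most of the list, so the cells are called here by their rule.

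Lgals1, which encodes galectin-1 and is high in activated and antibody-secreting B cells, stood at 49.9 CPM in positive and 234 CPM in negative cells at 12 weeks, and at 47.0 and 149 CPM at 7 weeks. Zeb2, a factor of age-associated B cells, stood at 25.8 and 56.6 CPM at 12 weeks (ratio 0.457, 0.297 to 0.699) and at 38.4 and 74.5 CPM at 7 weeks (ratio 0.516, 0.243 to 1.12). The chemokine receptor Cxcr3 was found at 12 weeks in 12 positive and 16 negative cells, with 25 and 45 UMIs, and at 7 weeks in 2 and 1 cells. Single negative cells held 32.4% and 60.7% of the negative gate's Lgals1 UMIs at 12 and 7 weeks and 18% and 21.4% of its Zeb2 UMIs.

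Ly6a, the interferon-inducible surface protein Sca-1, was lower in positive cells, at 586 against 945 CPM at 12 weeks (ratio 0.620, 0.565 to 0.681) and 435 against 660 CPM at 7 weeks (ratio 0.660, 0.526 to 0.832). Bst2, which tethers enveloped virions at the cell surface, stood at 76.4 against 149 CPM and 68.3 against 144 CPM. Both sums were lower in the positive gate at both ages, but 1 negative cell held 17.4% of the negative gate's Ly6a UMIs at 12 weeks and 33.9% at 7 weeks, and 1 cell 20.5% and 33.3% of its Bst2 UMIs.

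MHC class II genes were slightly higher in positive cells. H2-Aa, the alpha chain of I-A, stood at 8520 CPM in positive and 7367 CPM in negative cells at 12 weeks (ratio 1.16, 1.12 to 1.19), and at 7051 and 6213 CPM at 7 weeks (ratio 1.13, 1.06 to 1.21). H2-Eb1, the beta chain of I-E, stood at 5351 and 4714 CPM at 12 weeks and at 4649 and 4133 CPM at 7 weeks. Cd74, the invariant chain that guards the peptide groove, stood at 19925 and 17516 CPM at 12 weeks and at 17003 and 15399 CPM at 7 weeks. These were the 3 of 14 measured list genes with an interval above 1 at both ages, against 2.66% of all genes tested, and none was past 1.5-fold. H2-Ab1, the beta chain of I-A, was higher at 12 weeks (6042 against 5264 CPM) and not at 7 weeks (4547 against 4649 CPM). The list's median log2 ratios were 0.19 and 0.16, and 0.05 and 0.06 without the cells rich in plasma cell or cell cycle transcripts.

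Since H2-Aa and H2-Eb1 were both higher in positive cells and, as shown further on, varied together from cell to cell, the 120 bases before the start of H2-Aa (chr17:34287824-34287943, minus strand) and of H2-Eb1 (chr17:34305747-34305866, plus strand) are shown, from RefSeq on GRCm38.p6, 5′ to 3′ along the gene. Capitals mark CTGATTGG, the letters of the class II Y box with its inverted CCAAT.
H2-Aa: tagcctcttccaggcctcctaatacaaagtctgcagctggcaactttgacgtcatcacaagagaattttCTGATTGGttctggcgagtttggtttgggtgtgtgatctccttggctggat
H2-Eb1: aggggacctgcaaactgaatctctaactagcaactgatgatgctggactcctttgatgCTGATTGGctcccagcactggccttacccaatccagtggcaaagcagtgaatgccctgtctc
The match lies 51 to 44 bases before the start in H2-Aa and 62 to 55 bases before it in H2-Eb1. Searched on both strands in windows of 300 bases around the start, CTGATTGG was held by 4.10% of 32851 promoters. A match of letters is a description and does not show binding. The bases here and for the heat shock pair below are those of the reference genome, and the NOD sequence was not examined. H2-Ab1 and Cd74 are named only.

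Stress genes behaved differently from one another between the gates. The inducible heat shock chaperone Hspa1a stood at 468 CPM in positive and 272 CPM in negative cells at 12 weeks, and at 544 and 277 CPM at 7 weeks (ratios 1.72 and 1.97). Its near-identical neighbour Hspa1b stood at 42.3 and 21.5 CPM at 12 weeks (ratio 1.97, 1.17 to 3.45) and at 126 and 42.6 CPM at 7 weeks (ratio 2.96, 1.41 to 7.17). Reads of the pair can be split unevenly between copies so alike, so each value is uncertain. Dusp1, a phosphatase that turns off MAP kinases, stood at 154 against 108 CPM and 305 against 186 CPM. By contrast Egr1, an early target of B cell receptor signalling, was lower in positive cells, at 58.7 against 89.5 CPM at 12 weeks and 79.0 against 160 CPM at 7 weeks, where 1 negative cell held 33.3% of the negative gate's Egr1 UMIs. Of 20 immediate-early and stress genes measured at both ages, Hspa1a and Hspa1b were over 1.5-fold higher and Egr1 and Gadd45b over 1.5-fold lower at both. Of all genes tested 0.465% and 2.58% were.

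The promoters of the heat shock pair are shown because the genes differed together. The bases before the start are again those of RefSeq on GRCm38.p6, Hspa1a from chr17:34972157-34972276 and Hspa1b from chr17:34959239-34959358, both minus strand. Capitals mark GAANNTTC, an inverted repeat of the heat shock element unit, N being any base.
Hspa1a: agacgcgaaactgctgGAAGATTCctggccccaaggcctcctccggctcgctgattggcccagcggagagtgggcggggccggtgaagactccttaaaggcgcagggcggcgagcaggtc
Hspa1b: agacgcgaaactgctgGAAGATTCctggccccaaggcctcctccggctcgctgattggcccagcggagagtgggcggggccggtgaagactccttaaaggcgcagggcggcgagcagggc
The printed stretches differ at 1 of 120 bases. GAANNTTC lies 104 to 97 bases before either start and was held by 7.86% of the 32851 promoter windows, searched on both strands. It also occurs in H2-Aa, 58 to 51 bases before the start, overlapping the CTGATTGG by 1 base, and CTGATTGG also occurs in both heat shock promoters, 70 to 63 bases before the start. Neither motif was therefore particular to its pair.

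Among cytokines, Ltb was higher in positive cells. It encodes lymphotoxin beta, with which B cells maintain follicular dendritic cells, and stood at 994 against 789 CPM at 12 weeks (ratio 1.26, 1.15 to 1.38) and 914 against 686 CPM at 7 weeks (ratio 1.33, 1.09 to 1.63). Cd83, an activation marker that stabilises surface MHC class II, stood at 418 against 349 CPM and 453 against 330 CPM (ratios 1.20 and 1.37). Cd79b stood at 1492 against 1307 CPM (ratio 1.14, 1.06 to 1.23) and 1306 against 963 CPM (ratio 1.36, 1.15 to 1.61). These differences were under 1.5-fold at both ages.

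Cd55, Hvcn1, Smap2 and Hspa1a were lowest in gated cells with no Fcer2a UMI at both ages, which is largely fixed by their choice as genes higher in positive than negative cells and is a description only. Among cells with at least 1 Fcer2a UMI their levels had no common order. Cd55 stood at 130, 219, 195 and 236 CPM in 12 week cells with 0, 1, 2 and at least 3 Fcer2a UMIs (151, 123, 91 and 112 cells), and at 170, 349.8, 199.75 and 242 CPM in 7 week cells (33, 27, 18 and 35 cells). Hvcn1 stood at 230, 367, 265 and 421 CPM over the same bins at 12 weeks. Smap2 stood at 127, 187, 203 and 210.45 CPM at 12 weeks. Hspa1a stood at 272, 469, 486 and 449.99 CPM at 12 weeks and 277, 599.65, 485 and 538 CPM at 7 weeks. Median depth climbed over these bins too, to 4782 and 5538 UMIs in cells with at least 3 Fcer2a UMIs, against 4486 and 4461 in cells with none, and its part in the differences was not tested.

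**Figure D3:**
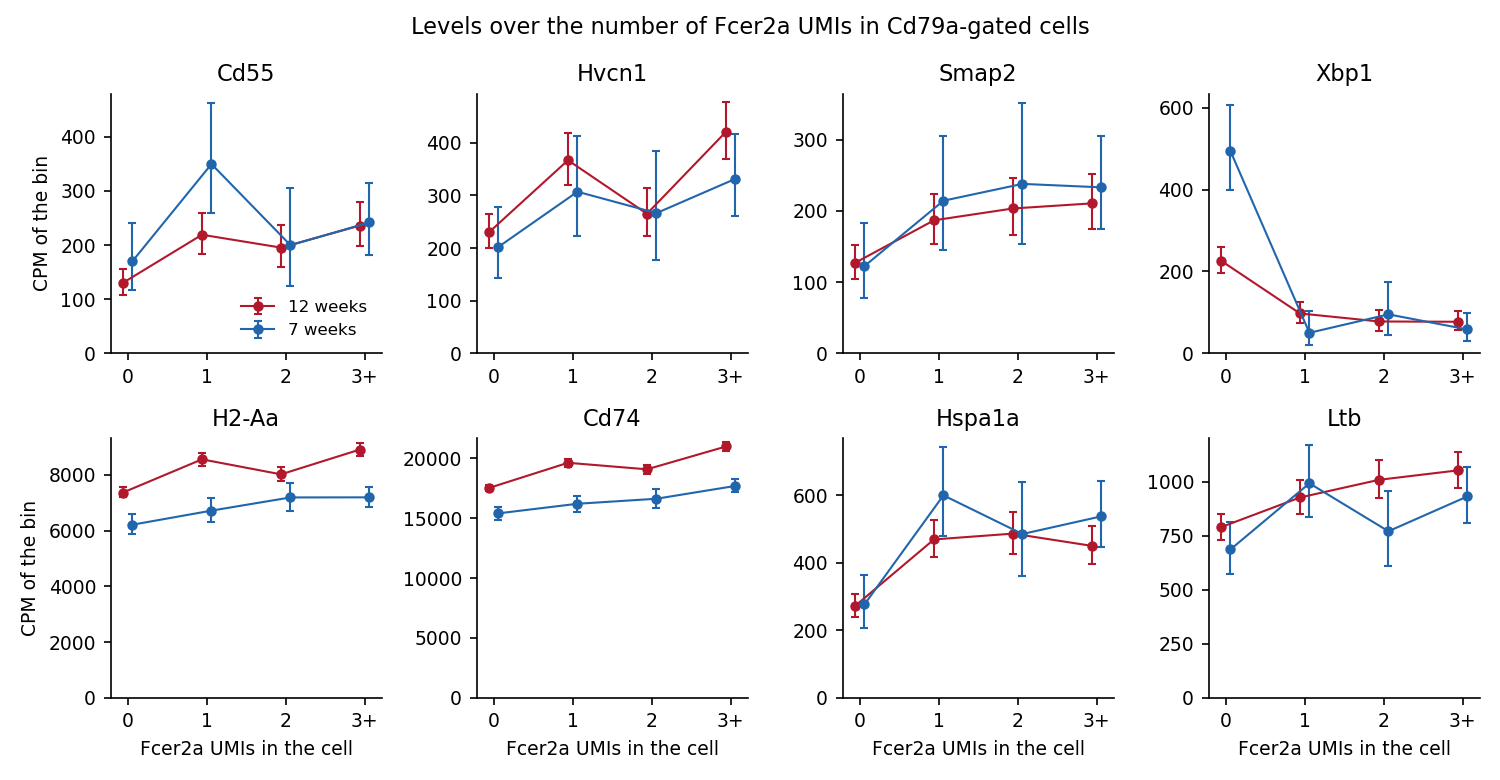
CPM of 8 genes (y axes, from 0) in Cd79a-gated cells grouped by their number of Fcer2a UMIs (x axes, 0, 1, 2 and 3 or more), at 12 weeks (red) and 7 weeks (blue), with exact 95% counting intervals. Cd55 and Hspa1a are lowest at 0 Fcer2a UMIs in both libraries, and for H2-Aa and Cd74 the 12 week values lie above the 7 week values in each bin.

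By variance over mean, the most spread genes of positive cells included Actb, Malat1, Ly6a, Hspa1a and Cd74. Spread was measured as the variance over the mean of UMIs between cells thinned to 2000 UMIs, for which counting alone gives 1. For the same relative differences between cells this measure is larger at a higher mean, so it does not rank genes or lists of unlike abundance. Over 1890 genes the median was 1.03 at 12 weeks and 1.04 at 7 weeks, and 36 genes exceeded 1.5 in both libraries. Actb, which encodes beta-actin, had 7.12 and 10.5, and the nuclear RNA Malat1 6.12 and 8.22. Cd74 had 3.08 and 4.80, with the middle 80% of cells between 29 and 56 UMIs at 12 weeks and between 17.8 and 52.2 at 7 weeks.

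At this thinned depth some genes were undetected in most cells and high in a few. Hspa1a had a variance over mean of 6.53 and 4.15 and was detected in 29.4% and 42.5% of thinned cells and in 44.2% and 55% of cells at full depth. Ly6a had 4.77 and 4.50 and was detected in 33.7% and 23.8% thinned and in 50% and 36.3% at full depth. The activator protein 1 genes Fos (2.66 and 2.55), Jun (2.36 and 2.66) and Junb (3.30 and 2.45) also ranked among the 12 most spread genes chosen by the rule.

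Cells high in 1 class II gene tended to be high in the others. The class II list, summed per cell, had a variance over mean of 4.99 at 12 weeks and 7.14 at 7 weeks, against 2.30 and 3.20 had its members varied separately. Spearman's rho between Cd74 and H2-Ab1 was 0.46 over 326 cells at 12 weeks and 0.47 over 80 cells at 7 weeks, and between H2-Aa and H2-Eb1 0.36 and 0.55. These are descriptions over cells of 1 library at equal depth, where more of 1 abundant transcript leaves less room for others: Cd74 and the ribosomal protein gene Rpl41 gave -0.34 and -0.42. The immediate-early and stress list likewise had 4.28 and 5.42, against 2.36 and 2.11 had its members varied separately.

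Some pairs of immediate-early genes were detected in the same cells more often than apart. Pairs were counted at full depth, which differs between cells, and the part of depth was not tested. At 12 weeks 84.3% of cells with a Fos UMI had a Junb UMI, against 68.1% of cells without Fos, and at 7 weeks 94.0% against 76.9%. Egr1 and Nr4a1, both induced by receptor signalling, went together as well: Nr4a1 was found in 31.4% of Egr1-positive and 14.9% of Egr1-negative cells at 12 weeks, and in 66.7% and 23.1% at 7 weeks. An interferon-linked pair did the same, with Ifi27l2a in 74.2% of cells with Ly6a and 47.9% of cells without it at 12 weeks, and in 72.4% and 49.0% at 7 weeks. Other pairs did not. Fos was found in 70.1% of cells with Hspa1a and 73.6% without it at 12 weeks, and in 84.1% and 83.3% at 7 weeks. Plac8 was found in 74.2% of cells with Ly6a and 61.4% without it at 12 weeks, but in 65.5% and 62.7% at 7 weeks. In thinned cells the type I interferon list reached at least 10 UMIs in 12 cells at 12 weeks and 1 cell at 7 weeks.

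The follicular list stood at 1.23 and 1.26, against 1.12 and 1.07 for members varying separately. It averaged 4.28 and 4.66 UMIs per thinned cell, against 92.9 and 77.4 for the class II list, so their values are not compared. B cell receptor signalling genes stood at 1.12 and 1.03 against 1.06 and 1.08. The cell cycle list had 2.40 and 9.12, and 6 positive cells at 12 weeks and 2 at 7 weeks held at least 20 of its UMIs. Mki67, a marker of cycling cells, was found in 6 and 3 positive cells.

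**Figure D4:**
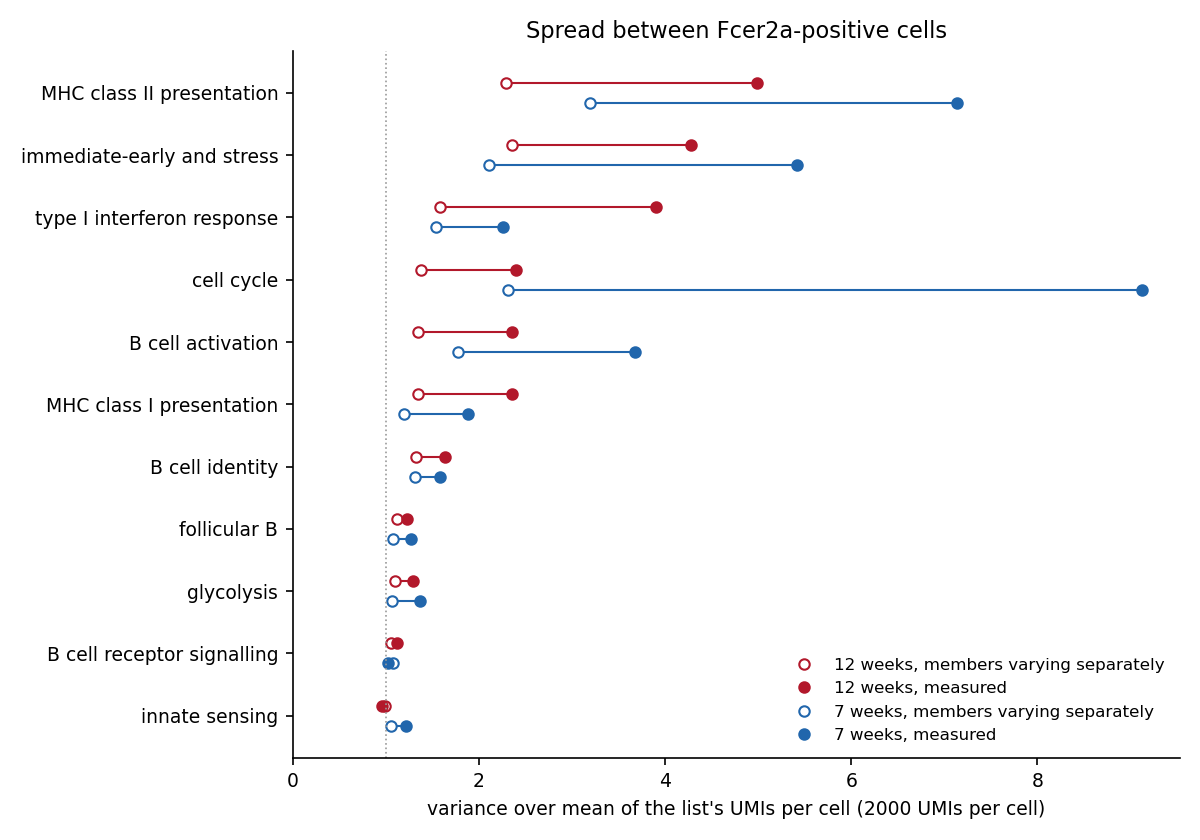
Variance over mean of each list's summed UMIs between Fcer2a-positive cells thinned to 2000 UMIs (x axis), at 12 weeks (red, upper) and 7 weeks (blue, lower); filled circles are the measured values, open circles the values had the list's genes varied separately, and the dotted line is the value of 1 that counting alone gives. MHC class II presentation (4.99 and 7.14) and immediate-early and stress genes (4.28 and 5.42) extend far to the right of their open circles, and B cell receptor signalling does not. The measure also depends on a list's mean UMIs, which differ between lists.

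Between the ages, positive cells at 12 weeks had less RNA of several early response genes and more of several antigen presentation and glycolysis genes than positive cells at 7 weeks. Of 5566 genes with at least 30 UMIs over both libraries, 772 (13.9%) were over 1.5-fold higher at 12 weeks and 512 (9.2%) over 1.5-fold lower, with intervals above 1 for 461 (8.28%) and below 1 for 313 (5.62%). Scaled by the median of gene ratios in place of total UMIs, which shifted log2 ratios by 0.12, the split was 541 higher and 702 lower. The median log2 ratio over all genes was 0.09. Differences of the list medians near that size are not read as a direction.

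The gene farthest below was Ier5, an immediate-early regulator of the heat shock response (chr1:155096361-155099636, minus strand, mm10), at 46.4 CPM at 12 weeks, against 297 CPM at 7 weeks (ratio 0.156, 0.117 to 0.208). Btg1, an antiproliferative gene of quiescent lymphocytes, stood at 663 and 1514 CPM (ratio 0.438, 0.398 to 0.482). The same ratios were 0.189 and 0.451 in Fcer2a-negative cells and 0.212 and 0.494 in CD3-positive cells. Both genes were thus lower at 12 weeks in all 3 kinds of cell of the library, B cells or not.

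The other 8 genes named on this side were also lower in CD3-positive cells. The mitochondrial glutaredoxin Glrx5 had a ratio of 0.177 (0.0922 to 0.331) in positive cells and 0.219 in CD3-positive cells, and Hspa1b 0.336 (0.235 to 0.482) and 0.343. Rab24, Tmem160, Cbfb, AY036118 and Vapa had ratios of 0.177, 0.268, 0.330, 0.448 and 0.398 in positive cells, and of 0.352, 0.290, 0.579, 0.438 and 0.591 in CD3-positive cells. Kdm6b, a histone H3K27 demethylase, stood at 28.2 CPM at 12 weeks, against 79.0 CPM at 7 weeks in positive cells (ratio 0.357, 0.228 to 0.564). In negative cells its ratio was 1.66 with an interval of 0.654 to 5.40, and in CD3-positive cells 0.619.

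The immediate-early and stress list lay on the same side as a group. Of its 20 genes with at least 30 UMIs, none was over 1.5-fold higher and 7 were over 1.5-fold lower at 12 weeks, and 12 had an interval below 1. Of all genes tested 13.9% were higher and 9.2% lower by that fold, and 5.62% had an interval below 1. Dusp1 stood at 154 CPM at 12 weeks, against 305 CPM at 7 weeks, Jund at 42.3 and 91.8 CPM, and Fos at 497 and 679 CPM. The list's median log2 ratio was -0.42 in positive cells, -0.42 in negative cells and -0.54 in CD3-positive cells. The difference between the libraries in this list was thus found in B cells and CD3-positive cells alike.

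The B cell activation list, which shares early genes with that list, had 9 of 21 genes over 1.5-fold lower and none over 1.5-fold higher. Of all genes tested 9.2% and 13.9% were. The list's median log2 ratio was -0.44. That median was -0.21 after thinning, -0.20 without each gene's top cell and -0.087 without the cells rich in plasma cell or cell cycle transcripts. In negative cells it was -0.0032, with 2 of 18 genes higher and 4 lower, where 15.1% and 11.8% of all genes tested were. Pim1, a kinase induced by cytokine and antigen receptors, stood at 28.8 CPM at 12 weeks, against 130 CPM at 7 weeks (ratio 0.221). Nfkbia, the inhibitor that NF-kB induces against itself, stood at 337 and 493 CPM (ratio 0.683, 0.585 to 0.799). Cd69, an early activation antigen that holds lymphocytes in tissue, went the other way at 408 and 305 CPM (ratio 1.34). In CD3-positive cells 7 of 24 measured list genes were over 1.5-fold lower, where 10.6% of all genes tested were.

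Many antigen presentation genes were higher at 12 weeks, and of those with at least 30 UMIs Tap2 alone by over 1.5-fold. By that fold 13.9% of all genes tested were higher. In the class II list 8 of 15 genes had an interval above 1 and none below, and in the class I list 9 of 16 and none. Of all genes tested 8.28% had an interval above 1 and 5.62% below. Abundant genes have narrower intervals, so these shares are not directly comparable. The ratios were 1.21 for H2-Aa, 1.33 for H2-Ab1, 1.15 for H2-Eb1 and 1.17 for Cd74. The immunoproteasome subunit Psmb8 stood at 759 CPM at 12 weeks, against 555 CPM at 7 weeks (ratio 1.37), the peptide transporter subunit Tap2 at 136 and 79.0 CPM (ratio 1.72) and the heavy chain H2-K1 at 1269 and 958 CPM (ratio 1.32). The list medians were 0.20 and 0.32, and 0.08 and 0.20 with scaling by the median of gene ratios.

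In CD3-positive cells 12 of 15 class II genes were over 1.5-fold lower at 12 weeks by their sums, and the median log2 ratio was -1.16. Those sums rested on a few cells: the whole list stood at 860 CPM at 12 weeks, against 3398 CPM at 7 weeks, while the median CD3-positive cell stood at 718 and 703 CPM and the highest at 21550 and 98233 CPM. In negative B cells the median was 0.18, close to the 0.20 of positive cells.

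Interferon-gamma response genes had 4 of 15 over 1.5-fold higher and 1 over 1.5-fold lower, where 13.9% and 9.2% of all genes tested were. Their median log2 ratio was 0.28, against 0.23 in negative and 0.16 in CD3-positive cells. The GTPases Gbp2 (56.4 and 29.9 CPM, ratio 1.89) and Gbp3 (49.9 and 14.9 CPM, ratio 3.34, 1.55 to 8.56), which attack intracellular pathogens, led the higher ones, and the adhesion ligand Icam1 (29.96 and 57.6 CPM, ratio 0.520) was the lower one. In CD3-positive cells the ratio of Gbp3 was 1.09. Type I interferon genes had 4 of 12 higher and 1 lower, and 2 had an interval above 1. Their median log2 ratio was 0.22, against -0.20 in negative and -0.04 in CD3-positive cells. The nucleic acid sensor Zbp1 was among the higher ones at 98.1 and 57.6 CPM.

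Glycolysis genes had a median log2 ratio of 0.51 over 13 genes, 4 of them over 1.5-fold higher, where 13.9% of all genes tested were, and none over 1.5-fold lower. After thinning the median was 0.24. Pfkl, a phosphofructokinase, stood at 34.7 CPM at 12 weeks, against 12.8 CPM at 7 weeks (ratio 2.71, 1.17 to 7.67), the pyruvate kinase gene Pkm at 257 and 179 CPM (ratio 1.43) and the lactate dehydrogenase gene Ldha at 339 and 237 CPM (ratio 1.43). The median was 0.44 in negative B cells and 0.04 in CD3-positive cells. Oxidative phosphorylation genes, by comparison, had none of 17 past 1.5-fold.

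Gsn, which encodes the actin-severing protein gelsolin, was among the higher genes named by rank. It had 173 UMIs in 123 of 326 cells at 12 weeks and 14 UMIs in 12 of 80 cells at 7 weeks (102 and 29.9 CPM, ratio 3.40, 1.97 to 6.35). Its ratio was 1.88 in negative cells and 0.727 in CD3-positive cells. Ezr, which links actin to the membrane, stood at 236 and 122 CPM (ratio 1.94, 1.47 to 2.61), and at 1.16 as a ratio in CD3-positive cells. The desaturase Scd2 had 34 UMIs at 12 weeks and none at 7 weeks, which makes it at least 3.12-fold higher against a floor of 3 counts over the 7 week cells. The cAMP-responsive repressor Crem stood at 43.5 and 10.7 CPM (ratio 4.07, 1.67 to 12.9). The RNA methyltransferase Nsun2 (ratio 3.45, 1.76 to 7.75) and Vps36, Eny2, Echs1 and Cyb5r3 (ratios of 3.30, 2.79, 3.74 and 3.69) complete the named set, and each had a ratio between 0.996 and 1.18 in CD3-positive cells. In negative cells they had 1.08, 1.74, 0.908, 1.23 and 1.70, and Crem 1.16, all with intervals including 1. Positive cells at 7 weeks held only 5 to 14 UMIs of each of these genes. There the positive over negative ratio was 0.301 for Nsun2 and 0.296 for Eny2, with intervals below 1.

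Of 16 B cell identity genes with at least 30 UMIs, Cd72 and Spib were over 1.5-fold higher at 12 weeks and none over 1.5-fold lower. The share higher was 12.5%, no more than the 13.9% of all genes tested. An interval above 1 was found for 7 of the 16, against 8.28% of all genes tested. Ms4a1 stood at 1171 CPM at 12 weeks, against 794 CPM at 7 weeks (ratio 1.47, 1.32 to 1.65). Cd72, an inhibitory coreceptor, stood at 372 and 218 CPM (ratio 1.71, 1.38 to 2.13), and Spib, an Ets factor of mature B cells, at 207 and 107 CPM (ratio 1.94, 1.44 to 2.66). In negative cells Cd72 and Spib gave ratios of 0.845 and 0.894. Whether the gates differ in this was not tested. The follicular list had 1 of 16 genes over 1.5-fold lower (6.25%, against 9.2% of all genes tested) and none over 1.5-fold higher. The lower one was Ikzf3, which encodes Aiolos, at 74.6 and 143 CPM (ratio 0.522, 0.385 to 0.712).

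**Figure D5:**
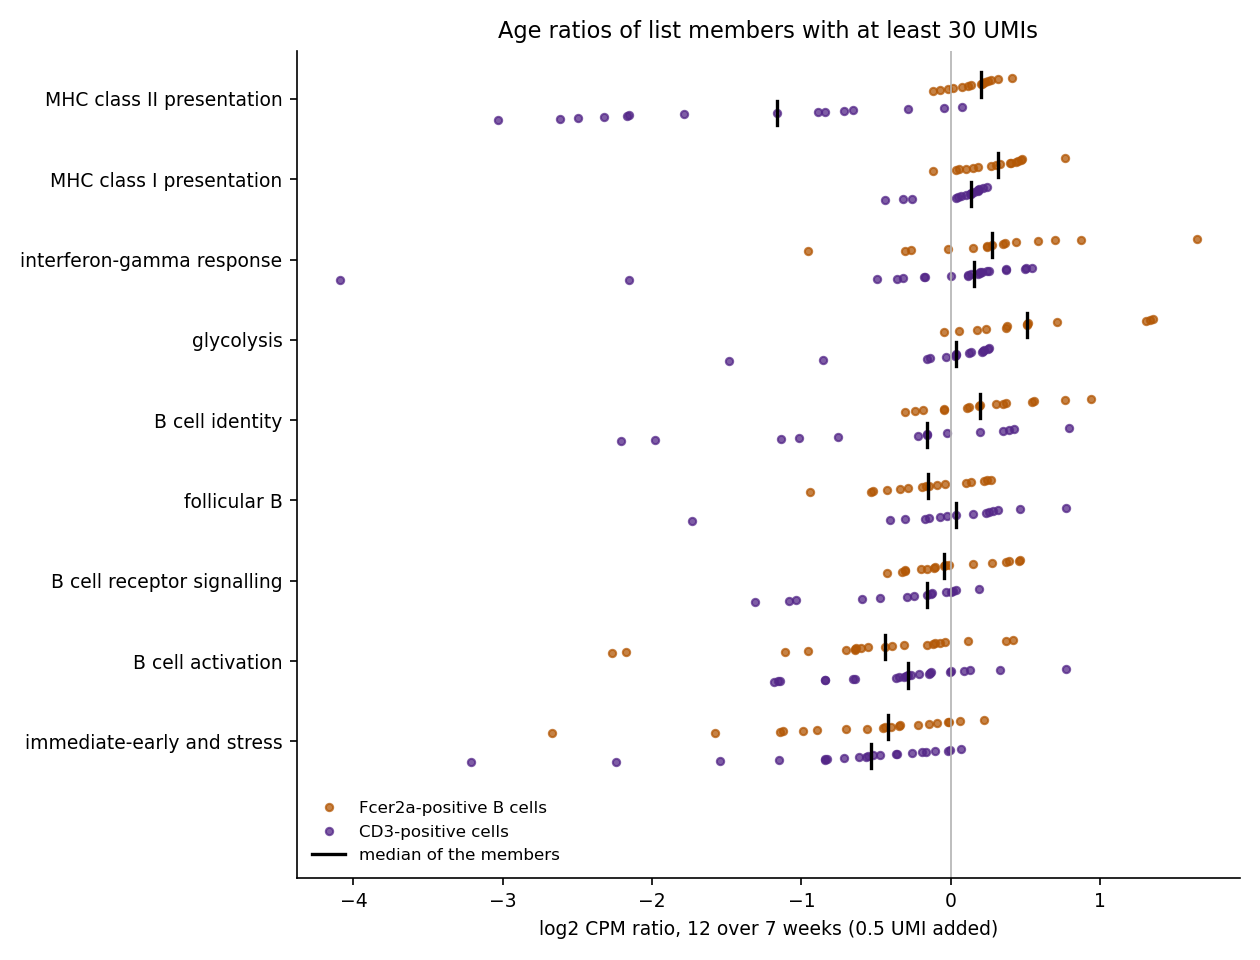
Log2 CPM ratio of 12 over 7 weeks (x axis) for each list gene with at least 30 UMIs, in Fcer2a-positive B cells (brown, upper) and CD3-positive cells (purple, lower), with black bars at the medians and the grey line at equal levels. Immediate-early and stress genes have medians of -0.42 and -0.54 in the 2 kinds of cell, while MHC class II genes have 0.20 in positive B cells and -1.16 in CD3-positive cells.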

How the data were processed

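The authors deposited, per library, raw UMI counts per gene and barcode, made with Cell Ranger 1.3.1 on mm10 per the submitters' processing notes. Its cell calling settings and annotation version were not given in the sources used here. A barcode needed 200 or more genes and no more than 10% of UMIs from mitochondrial genes, and 8 failed at 12 weeks and 4 at 7 weeks. The gate was then applied to raw counts. No doublet caller was run. Requiring no CD3 UMI and at most 1 of Lyz2 removes part of the doublets with T cells and macrophages, and doublets of 2 B cells stay.

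Counts were summed over the cells of a gate and library and given as counts per 1000000 UMIs (CPM). Ratios have exact conditional binomial 95% intervals, and shares exact Clopper-Pearson intervals. Intervals treat UMIs or cells as independent. Genes with at least 30 UMIs in a comparison were used, log2 ratios had 0.5 UMI added to each sum, and 1.5-fold was the threshold. The genes of the gate were left out of all counts. Spread used cells thinned at random to 2000 UMIs and genes averaging at least 0.1 UMI per cell. Interval coverage and spread were tested on simulated Poisson counts only. Those counts lack differences between cells, so the test checks the calculation and not the coverage in these data. Python 3.11.15, numpy 2.4.6, pandas 2.3.3, scipy 1.17.1 and matplotlib 3.10.9 were used.

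The members and the 38 gene lists (530 genes, 8 of them not listed in the matrices under those symbols) were chosen with earlier results of these data known. Between ages, the 10 higher and 10 lower genes named were those past 1.5-fold with the interval bound farthest from 1 and at most 20% of UMIs in 1 cell. Between gates, the rule allowed up to 12 per direction, past 1.5-fold with an interval excluding 1 at both ages, and 3 and 2 genes met it. For spread it took the 12 genes with the largest of the lower library's values. List members are named besides, and left out were mitochondrial, ribosomal, haemoglobin, acinar, endocrine and Xist genes and predicted models. Positions come from GENCODE vM21 on mm10. Alternatives tried are other thresholds of the gate, thinning, other scalings and UMI minimums, and leaving out deep, plasma cell-rich or cycling cells. Results for some genes are not reported here.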

Additional observations from a re-analysis of the deposited data

Results flagged for a closer look

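A Fcer2a UMI was present outside the B cell gate, in 0.832% of CD3-positive cells at 12 weeks (13 of 1563) and 0.826% at 7 weeks (6 of 726), above the limit that a count of 0 allows.

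Cells with at least 3 Cd79a UMIs and a Fcer2a UMI were often left out of the gate for a CD3 UMI, 27.3% of them at 12 weeks (126 of 461) and 33.9% at 7 weeks (41 of 121). Of these, 87 and 28 had 1 CD3 UMI. Whether they are doublets or B cells with free RNA was not tested.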

How the results depend on the processing

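No paired analysis was possible because each age had 1 library with no replicate. The share of positive cells at 12 and 7 weeks was 42.6% and 46.9% with at least 2 Fcer2a UMIs required, and 43.8% and 51.9% after thinning before the gate, with intervals that overlap. Genes over 1.5-fold higher and lower at 12 weeks numbered 312 and 196 after thinning, 1393 and 1230 with a minimum of 10 UMIs, and 196 and 108 with 100. Genes higher and lower in positive than negative cells at both ages numbered 0 and 0 after thinning, 6 and 24 by the mean over cells, 63 and 204 with a minimum of 10 UMIs, 5 and 12 with 100, 19 and 18 without each gene's top cell, 4 and 10 without cells over 2 times the median depth, and 4 and 10 without cells rich in plasma cell or cell cycle transcripts. Genes over 1.5 in spread numbered 77 at 3000 UMIs. Thinning, other minimums and leaving out cells change how many genes reach the minimum, and those numbers are not given here. A lower or higher count under them therefore does not show that differences shrank or grew.

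Directions turned in these cases, and the cause was not tested. The cholesterol synthesis median between ages was -0.092 after thinning and -0.13 with a minimum of 100 UMIs. Between gates at 7 weeks, the follicular median was -0.055 with at least 2 Fcer2a UMIs, and the plasma cell median 0.71 after thinning. The cell cycle median was 0.063 at 12 weeks without the rich cells and, at 7 weeks, -0.25 after thinning, -0.10 with a minimum of 10 UMIs, -0.24 without deep cells and -0.18 without rich cells. The immediate-early median was 0.0054 at 7 weeks without top cells. The activation median was 0.084 at 12 weeks with a minimum of 100 UMIs and, at 7 weeks, -0.11 after thinning, -0.23 without deep cells and -0.13 without rich cells. Smap2 was -0.11 at 7 weeks and Brd2 0.16 at 12 weeks after thinning. Of 708 comparisons of 59 list medians and gene ratios, 579 stayed within counting error, 113 moved beyond it in the same direction or from near 0, and 16 turned. The removal of top cells and of rich cells and the allowance of 1 CD3 UMI were chosen after seeing the data. The 80 positive and 33 negative cells at 7 weeks limit the depth most.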

Other observations

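In positive cells few genes of the germinal centre and B-1 lists were measured. Of 13 germinal centre genes 3 reached 30 UMIs over both libraries, of 11 B-1 genes 2, and of 15 marginal zone genes 6. The marginal zone list summed to 1310.5 CPM at 12 weeks, against 1044 CPM at 7 weeks, and the transitional list to 636 and 672 CPM. Cd5, a surface protein of B-1a cells, had 8 and 4 UMIs at 12 and 7 weeks, and Cd93, a marker of immature B cells, 0 and 1. Bcl6, the germinal centre factor, had 16 and 5 UMIs, and Tbx21, the factor of T-bet-positive B cells, 1 and 0.

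Among innate sensors, Tlr7 had 21 and 5 UMIs and Tlr9 0 and 1, while their chaperone Unc93b1 stood at 349 CPM at 12 weeks, against 292 CPM at 7 weeks. Among cytokines, Il10 had 2 and 2 UMIs, Il6 0 and 0, and Tnf 17 and 4, and Tgfb1 stood at 127 and 171 CPM (ratio 0.743, 0.572 to 0.973).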
